A study of Mus musculus with 8 samples.

Results

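Cd8a and Cd3d, 2 of the 100 genes of a single-molecule RNA imaging panel, were followed molecule by molecule through brain sections of mice carrying a GL261 glioma. Every molecule listed under either name was taken from all 8 sections, with no threshold. GL261 is a mouse glioma cell line that grows after implantation into the brain. The 4 groups had 2 sections each. In the first, mice received 4 intracranial treatments with CpG-STAT3ASO together with anti-PD1 (the combination). The others received CpG-STAT3ASO alone, anti-PD1 alone, or PBS, the vehicle. All groups shared the GL261 implant, and all mice were sacrificed on day 21. The series title writes CSI for the drug that the design text calls CpG-STAT3ASO, an antisense oligonucleotide against Stat3 joined to a CpG oligonucleotide. No strain, sex, age, number of animals or section level is given in the sources used here. Nothing says that sections came from separate animals, so the p-values below measure only the spread between sections, which may be technical.

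Cd3d encodes the delta chain of CD3, the signalling part of the T cell receptor complex carried by T cells of all conventional kinds. Cd8a encodes the alpha chain of the CD8 coreceptor, which binds class I MHC and marks cytotoxic T cells; in mice it is also carried by a subset of dendritic cells. Anti-PD1 antibodies block PD-1, an inhibitory receptor of activated T cells that the gene Pdcd1 encodes.

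The sections held between 1669939 and 6995401 molecules, and the 4 sections with CpG-STAT3ASO held fewer than the 4 without it. The picture was divided into square bins of 360 pixels, and a bin with at least 20 molecules was taken as tissue, which gave 2155 to 2405 tissue bins per section. The physical size of a pixel is not given in the sources used here. Bins with at least 100 molecules of Mki67 plus Birc5, a pair of genes of dividing cells, are called dense; bins with under 10 are called low-proliferation, and the rest intermediate. Dense bins made up 1.01% and 3.24% of tissue bins under the combination, 0.983% and 1.5% with CpG-STAT3ASO alone, 37.2% and 46.2% with anti-PD1 alone, and 32.2% and 44.8% with PBS. The groups with and without CpG-STAT3ASO therefore differed in how much dense tissue there was to hold Cd8a and Cd3d. Levels are given below as CPM, the molecules of a gene per 1000000 gene molecules of its section (the FP names described below left out), and as molecules per 1000 bins.

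Cd8a was highest in the second combination section on each scale used here. There were 1758 and 18335 Cd8a molecules under the combination, 1148 and 2651 with CpG-STAT3ASO alone, 4032 and 3258 with anti-PD1 alone, and 2140 and 1554 with PBS. As CPM these were 1056 and 4674 under the combination, 690 and 1093 with CpG-STAT3ASO alone, 607 and 512 with anti-PD1 alone, and 511 and 222 with PBS. By CPM each of the 4 sections with CpG-STAT3ASO lay above each of the 4 without it in Cd8a. How many of the 100 genes separated in this way was not counted, and a fit given below called 43% of them for this split. By molecules per 1000 tissue bins the groups overlapped in Cd8a. Those densities were 808 and 7624 under the combination, 491 and 1204 with CpG-STAT3ASO alone, 1812 and 1382 with anti-PD1 alone, and 964 and 721 with PBS. The second combination section stood far above its partner on both scales, and the Cd8a contrasts that use it are also given without it.

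Cd3d was the sparser gene. It had 182 and 698 molecules under the combination, 94 and 386 with CpG-STAT3ASO alone, 569 and 224 with anti-PD1 alone, and 208 and 465 with PBS. Its CPM were 109 and 178 under the combination, 56.5 and 159 with CpG-STAT3ASO alone, 85.6 and 35.2 with anti-PD1 alone, and 49.7 and 66.6 with PBS. Per 1000 tissue bins Cd3d had 83.7 and 290.2 under the combination, 40.2 and 175 with CpG-STAT3ASO alone, 256 and 95 with anti-PD1 alone, and 93.7 and 216 with PBS. The groups overlapped in Cd3d on each scale, and the 2 sections of CpG-STAT3ASO alone lay far apart in CPM. The number of probes per gene is not given in the sources used here, so the difference between the Cd8a and Cd3d counts is not read as a difference in expression.

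Up to 28 target names that begin with FP were listed beside the genes. They are taken here as codes that stand for no transcript, which the sources do not state, and they give the background. Cd8a exceeded the 90th percentile of the FP codes in all 8 sections and their median by 27.5-fold to 833-fold. Cd3d exceeded their median by 4.04-fold to 31.7-fold but passed the 90th percentile in only 5 of 8 sections, missing it in the second anti-PD1 section and in both PBS sections. One code, FP 13, alone had 3316 to 5348 molecules per section, more than Cd3d in every section and more than Cd8a in 6 of 8. Cd3d totals near this background carry less weight than those of Cd8a.

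**Figure D1:**
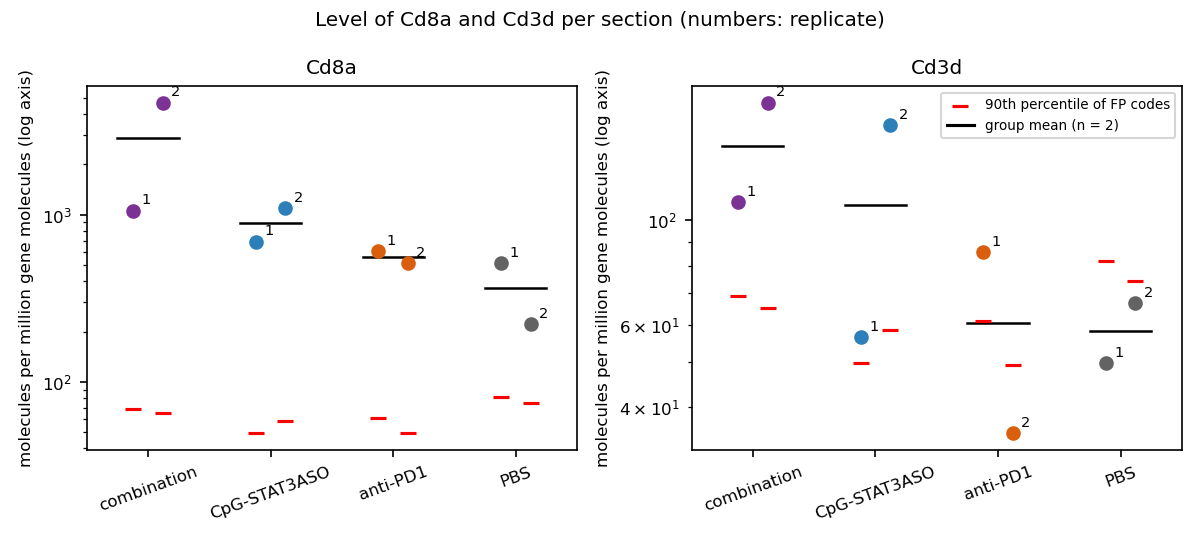
CPM of Cd8a and Cd3d in each of the 8 sections, on a log axis, with groups from left to right in the order combination, CpG-STAT3ASO, anti-PD1 and PBS; each point is a section, black lines are group means (n = 2) and red dashes mark the 90th percentile of the FP codes in that section. The second combination section lies highest for Cd8a at 4674 CPM, and the Cd3d points of the second anti-PD1 section and of both PBS sections lie under the dashes.

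Cd8a was the member whose share of all molecules passed a test against treatment. Its mean was 2865 ± 2558 CPM in the combination, 891 ± 285 with CpG-STAT3ASO alone, 560 ± 66.9 with anti-PD1 alone and 367 ± 204 with PBS (SD, n = 2 sections each). In a limma fit of log2(CPM + 1) over all 100 genes, the average effect of CpG-STAT3ASO on Cd8a was 1.68 on the log2 scale (SE 0.506, adjusted p = 0.0137), in a comparison that called 43% of the genes, 35% as higher. The median gene differed by 0.63 in the same direction. Without the second combination section the Cd8a value was 1.14 (adjusted p = 0.0645). Per 1000 tissue bins it was 0.27 (adjusted p = 0.776) and with median-of-ratios scaling 0.996 (adjusted p = 0.117), so the call depends on scaling by the section total.

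Cd8a also passed in 2 single contrasts, which share sections with each other and with the average. It was higher in the combination than with PBS by 2.72 (SE 0.715, limma adjusted p = 0.0173), where 18% of genes were called, and higher in the combination than with anti-PD1 alone by 1.99 (adjusted p = 0.0462), where 28% were called. Without the second combination section these were 1.64 (adjusted p = 0.118) and 0.92 (adjusted p = 0.395), and per 1000 tissue bins, with all sections, 1.57 (adjusted p = 0.381) and 0.65 (adjusted p = 0.714). With median-of-ratios scaling they were 2.04 (adjusted p = 0.0661) and 1.30 (adjusted p = 0.195). The second call was also lost, at an adjusted p of 0.0515 to 0.105, with a pseudocount of 10, a minimum mean of 50 molecules, no trend, the mean FP count subtracted, or molecules within 5 pixels merged. For CpG-STAT3ASO alone against PBS the Cd8a difference was 1.36 (adjusted p = 0.185, 25% called), and for anti-PD1 alone against PBS it was 0.72 (adjusted p = 0.975, 1% called). Against CpG-STAT3ASO alone the combination differed by 1.36 in Cd8a (adjusted p = 0.995), in a contrast that called 0% of genes by limma and had 2 at an unadjusted p under 0.05. That Cd8a value was 0.28 without the second combination section and 2.43 without the first.

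Cd3d passed none of these tests. Its average CpG-STAT3ASO effect was 1.02 (SE 0.565, limma adjusted p = 0.170), from means of 126 ± 54.5 CPM with CpG-STAT3ASO and 59.3 ± 21.8 CPM without it (SD, n = 4 sections each). Per 1000 tissue bins the Cd3d value was -0.37 (adjusted p = 0.704). In the combination against PBS it was 1.26 (adjusted p = 0.287), for CpG-STAT3ASO alone against PBS 0.71 (adjusted p = 0.534) and for anti-PD1 alone against PBS -0.06 (adjusted p = 0.975). Averaged over both backgrounds, anti-PD1 gave 1.04 in Cd8a and 0.24 in Cd3d (adjusted p = 0.998 each, 0% called), and the interaction of the 2 drugs gave 0.63 and 0.61 (adjusted p = 0.955 each, 0% called). Without the second combination section the Cd8a anti-PD1 average was 0.50 and the Cd8a interaction -0.44, and without the first they were 1.58 and 1.70. Those limma contrasts had 1 and 3 genes at an unadjusted p under 0.05. In a section, fewer T cells and less RNA per cell cannot be told apart.

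Markers of other cells moved with the same split. The 7 macrophage and microglia markers summed to 59320 to 104200 CPM in the sections with CpG-STAT3ASO, against 23870 to 33410 CPM in those without it, and 4 of the 7 were higher by the same fit, in which 35% of all genes were. The 3 measured markers of proliferating tumour, Mki67, Birc5 and Rrm2, summed to 12830 to 19250 CPM with CpG-STAT3ASO and 61280 to 120200 CPM without it. Neither list had a defining marker at 0, and their part in the Cd8a difference was not tested. Of the 7 measured genes of the cytotoxic list, 1 was higher with CpG-STAT3ASO, Tbx21, a transcription factor of type 1 lymphocytes, against 35% of all genes. Its group means were 5.38 CPM for the combination, 5.05 for CpG-STAT3ASO alone, 2.06 for anti-PD1 alone and 1.69 for PBS, far under the 90th percentile of the FP codes, while Ptprc, the pan-leukocyte gene for CD45, differed by 1.53. Among the 4 measured genes of the T cell receptor and coreceptor list, Cd8a and Cd4 passed, beside 35% of all genes higher, and Cd3d and Cd28 did not. Of 7 T cell checkpoints, 3 were higher (Havcr2, Lag3 and Tox) and Tnfrsf9 was lower. Of 7 T cell chemokine and receptor genes, 4 were higher (Ccl22, Ccl3, Ccl4 and Ccl5) and Cxcl10 was lower. Of 3 regulatory T cell genes, 1 was higher (Ikzf2).

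With large dense regions most molecules of both genes lay in them, and with few dense bins most lay elsewhere. Cd8a had 2.45% and 7.22% of its molecules in dense bins under the combination, 0% and 8.0% with CpG-STAT3ASO alone, 79.5% and 90.3% with anti-PD1 alone, and 68.3% and 57.3% with PBS. The 0% stands for 0 of 1141 molecules in tissue bins, in a section with 23 dense bins. If each molecule were an independent draw, this would allow a share of up to 0.263%. The molecules were not independent, as 67.1% of Cd8a in this section lay in groups of 3 or more linked within 50 pixels. The share allowed is therefore larger than that limit. Cd3d had 2.20% and 6.30% in dense bins under the combination, 3.19% and 6.48% with CpG-STAT3ASO alone, 84.7% and 89.3% with anti-PD1 alone, and 76.9% and 68.0% with PBS. For both genes the sections with and without CpG-STAT3ASO did not overlap, as the dense share of the tissue itself did not.

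The intermediate bins held more of Cd8a than their share of the tissue in all 4 sections with CpG-STAT3ASO and in 3 of the 4 without it. They held 35.1% and 63.6% of Cd8a molecules under the combination, where they were 15.4% and 45.9% of tissue bins. With CpG-STAT3ASO alone they held 32.8% and 58.2% of Cd8a, where they were 26.6% and 27.0% of tissue bins. Cd3d had 35.2% and 65.0% there in the combination and 30.9% and 58.0% with CpG-STAT3ASO alone. Without the drug they held 13.1% and 4.54% of Cd8a with anti-PD1 alone and 17.1% and 15% with PBS, where they were 9.89% and 7.55%, and 15.1% and 10.2%, of tissue bins. In the first section of CpG-STAT3ASO alone the Cd3d density was 46.6 molecules per 1000 intermediate bins, beside 377 in the second.

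**Figure D2:**
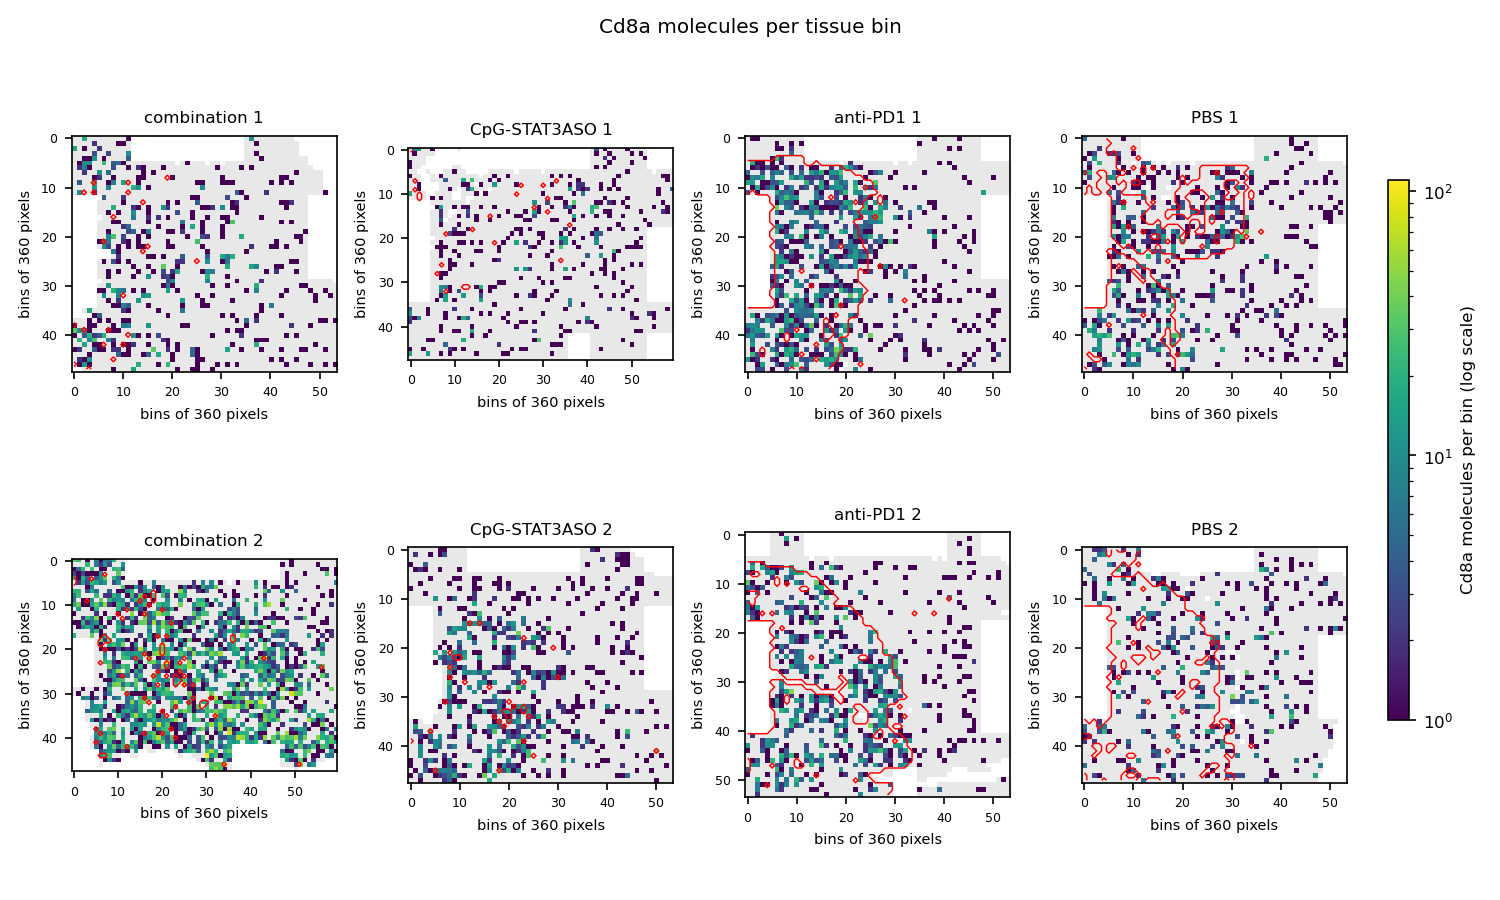
Cd8a molecules per bin of 360 pixels in the 8 sections, x and y in bins, each map a section, with tissue bins that hold no Cd8a in grey and dense bins outlined in red. In the anti-PD1 and PBS sections most Cd8a lies within the large outlined regions but does not fill them. Bins with any Cd8a were fewer than dense bins in each of these sections, as with 397 beside 965 in the second PBS section. In the sections with CpG-STAT3ASO Cd8a lies mostly outside the few outlined bins.

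**Figure D3:**
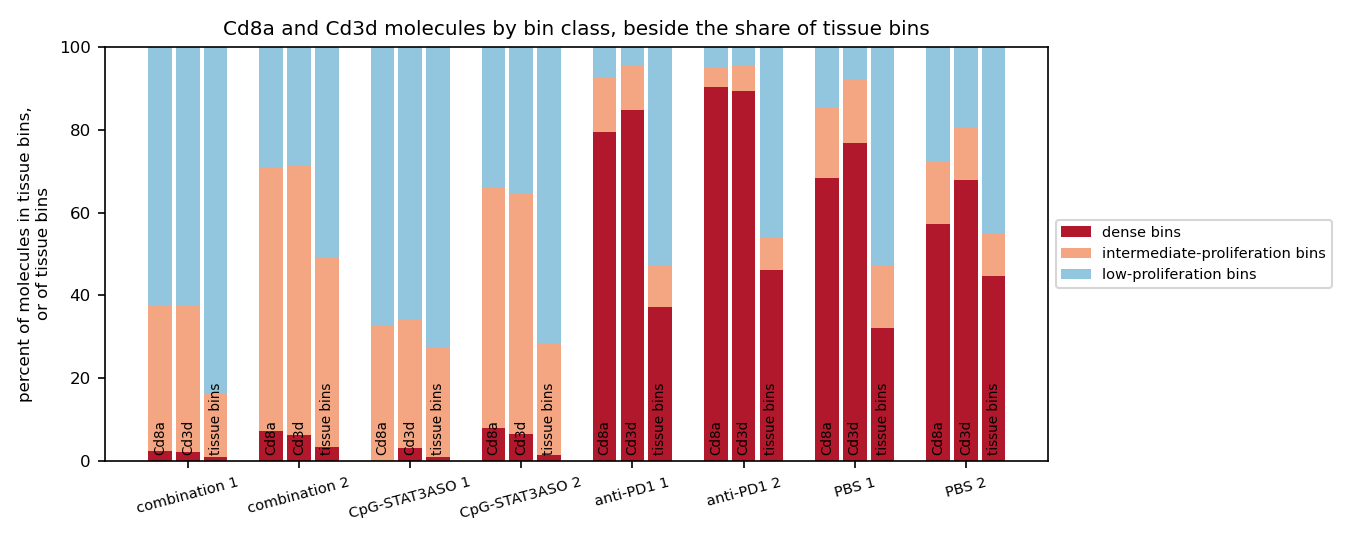
Percent of Cd8a molecules, of Cd3d molecules and of tissue bins that fall in dense (red), intermediate (orange) and low-proliferation (blue) bins, as 3 stacked bars that reach 100 for each of the 8 sections. The red parts of the Cd8a and Cd3d bars exceed that of the tissue bins in every section except for Cd8a in the first section of CpG-STAT3ASO alone, and with CpG-STAT3ASO no red part exceeds 8.0%.

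Low-proliferation tissue was compared on its own, since every section had at least 970 bins of it. Cd8a there had 851 and 3401 CPM under the combination, 713 and 620 with CpG-STAT3ASO alone, 346 and 240 with anti-PD1 alone, and 419 and 580 with PBS. The combination exceeded anti-PD1 alone by 2.56 on the log2 scale (SE 0.653, limma adjusted p = 0.0476), in a comparison that called 10.2% of 98 genes. Without the second combination section the difference was 1.56 (adjusted p = 0.137). The call was also lost without either anti-PD1 section (2.82 and 2.29) or either section of CpG-STAT3ASO alone (2.56 each), with the replicate block (adjusted p = 0.0534), with bins of 180 pixels (0.0542) and per 1000 bins (0.0638). The average CpG-STAT3ASO effect on Cd8a over all sections was 1.49 (adjusted p = 0.0696, 9.18% called), and 0.99 (adjusted p = 0.114) without the second combination section. Per 1000 low-proliferation bins Cd8a had 603 and 4366 molecules in the combination, 453 and 570 with CpG-STAT3ASO alone, 252 and 153 with anti-PD1 alone, and 267 and 443 with PBS. Sections with and without CpG-STAT3ASO did not overlap, but the lowest section with CpG-STAT3ASO lay only just above the second PBS section. How many of all genes separated in this way was not counted.

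Cd3d in low-proliferation bins had 88.5 and 127 CPM under the combination, 57.6 and 94.7 with CpG-STAT3ASO alone, 30.3 and 14.4 with anti-PD1 alone, and 21.4 and 121 with PBS. The second PBS section was among the highest and overlapped those with CpG-STAT3ASO. The combination exceeded anti-PD1 alone by 2.29 without passing the test (limma adjusted p = 0.107), and the average CpG-STAT3ASO effect was 1.40 (adjusted p = 0.165). These Cd3d values rest on 10 to 200 molecules per section.

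Over sections, 28 measures of place and grouping were compared between the 4 with and the 4 without CpG-STAT3ASO by a two-sided exact permutation test, whose smallest possible p is 0.0286. There, 9 of the 28 reached that p, with an adjusted p of 0.0889 each, so none passed after adjustment. They were the shares of both genes in dense, intermediate and low-proliferation bins, the Cd8a density in low-proliferation bins, the Cd8a density 4 to 9 bins outside the dense edge, and the mean size of Cd8a groups. The shares of a gene add up to the whole, so they were not separate measures. They also follow the tissue, whose dense share was 0.983% to 3.24% with CpG-STAT3ASO and 32.2% to 46.2% without it. The mean size of Cd8a groups was not among the planned measures. For anti-PD1, 0 of the 28 measures had an unadjusted exact permutation p under 0.05, and the lowest adjusted p was 0.948.

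Dense and low-proliferation bins were compared in the 4 sections without CpG-STAT3ASO, which had large dense regions. Under the combination, Cd8a had 1955 and 16960 molecules per 1000 dense bins, and with CpG-STAT3ASO alone 0 and 6424. Those sections had only 22 to 78 dense bins and were left out of this comparison. Their Cd8a densities in dense bins entered the permutation test of the 28 measures, without passing (two-sided exact permutation p = 0.914). Cd8a had 3878 and 2699 molecules per 1000 dense bins with anti-PD1 alone and 2046 and 922 with PBS, against 252 and 153 per 1000 low-proliferation bins with anti-PD1 alone and 267 and 443 with PBS. The dense bins exceeded the low-proliferation bins by 3.01 in Cd8a and 3.65 in Cd3d (limma with section as block, adjusted p = 0.000368 and 0.000195). In that comparison 95.9% of 98 genes were called and the median gene differed by 3.10, so Cd8a lay just under that median and Cd3d above it. The FP codes together had 3980 to 4576 molecules per 1000 dense bins and 2334 to 2988 per 1000 low-proliferation bins in these sections, a smaller gap than that of either gene.

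As a share of the molecules, neither gene passed a test between dense and low-proliferation bins. The Cd8a difference was 0.03 (SE 0.527, limma adjusted p = 0.953) and the Cd3d difference 0.71 (adjusted p = 0.312), where 56.1% of genes were called. Cd3d had 88.4 and 36.3 CPM in dense bins with anti-PD1 alone and 51.3 and 53.2 with PBS, against 30.3 and 14.4 CPM in low-proliferation bins with anti-PD1 alone and 21.4 and 121 with PBS. The second PBS section ran against the other 3, and without it the Cd3d difference was 1.34 (adjusted p = 0.0111) and the Cd8a difference 0.69 (adjusted p = 0.0658).

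Just outside the dense regions both genes took a larger share of the molecules than in distant tissue. In the zone 1 to 3 bins outside the edge Cd8a had 1212 and 638 CPM with anti-PD1 alone and 941 and 610 with PBS, against 251 and 181 CPM at 10 or more bins outside with anti-PD1 alone and 306 and 577 with PBS. The Cd8a difference was 1.45 (SE 0.427, limma adjusted p = 0.0182) and the Cd3d difference 2.25 (SE 0.678, adjusted p = 0.0194), in a comparison that called 64.2% of 95 genes with a median of 0.93. In molecules per bin the differences were 2.02 in Cd8a and 2.77 in Cd3d (adjusted p = 0.00327 and 0.00603, 68.4% called). Cd3d in the distant zone rested on 5, 2, 4 and 60 molecules, the last in the second PBS section, where its CPM was 134 at the margin and 133 far away. The Cd8a call was lost without either anti-PD1 section (1.17 and 1.32) or without the first PBS section (1.39), and with dense bins set at 200 or more (1.23, adjusted p = 0.0823), and the Cd3d call without the second anti-PD1 section (2.17) or the first PBS section (2.08).

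Cd8a molecules lay close to one another. In the combination sections 80.9% and 96.8% of Cd8a molecules had another within 100 pixels, 71.9% and 84.4% with CpG-STAT3ASO alone, 90.8% and 90.4% with anti-PD1 alone, and 83.1% and 85.7% with PBS. The median distance to the nearest other Cd8a molecule was 6.08 to 11.1 pixels, so most of this closeness was within a far smaller distance than 100 pixels. Among the FP codes other than FP 13, 2.79% to 11.7% of molecules had another of their own code that near, but for FP 13, which had more molecules than Cd8a in 6 of 8 sections, the share was 59.9% to 70.4%. This share therefore stood little above the background in the first section of CpG-STAT3ASO alone, at 71.9% for Cd8a and 70.4% for FP 13. Merging molecules of a gene within 5 pixels left 79.1% to 90.3% of Cd8a and 98.5% to 100% of Cd3d.

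Cd3d molecules lay near Cd8a more often than FP codes did in every section. The share with a Cd8a molecule within 100 pixels was 41.2% and 85.2% under the combination, 45.7% and 43.3% with CpG-STAT3ASO alone, 55.9% and 56.7% with anti-PD1 alone, and 46.2% and 29.3% with PBS. For FP codes other than FP 13 it was 9.06% and 29.3% with both drugs, 7.33% and 14.3% with CpG-STAT3ASO alone, 22.4% and 13.8% with anti-PD1 alone, and 13.9% and 7.76% with PBS. In the second combination section, where both shares were highest, the median Cd3d molecule lay 7.21 pixels from a Cd8a molecule, beside 56.3 to 256 pixels in the other 7.

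**Figure D4:**
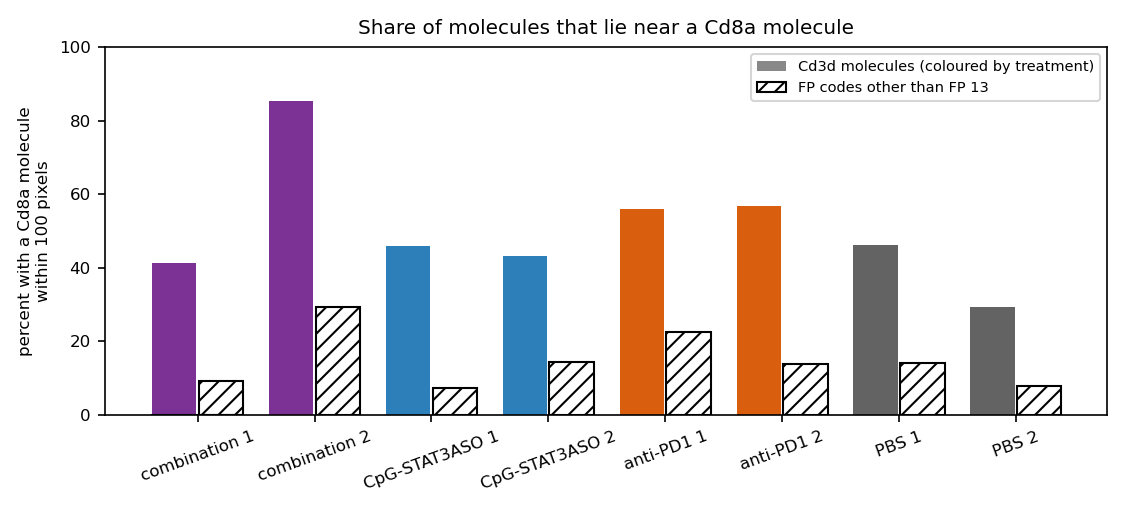
Percent of Cd3d molecules (filled bars, coloured by treatment) and of molecules of FP codes other than FP 13 (hatched bars) that have a Cd8a molecule within 100 pixels, for each of the 8 sections, on an axis from 0. The filled bar is the higher of the pair in every section, by the most in the second combination section, at 85.2% beside 29.3%.

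The density around a molecule, within 100 pixels over a ring of 400 to 600 pixels, sets closeness apart from local abundance. Cd8a around Cd8a gave log2 ratios of 4.88 and 3.20 under the combination, 5.21 and 4.13 with CpG-STAT3ASO alone, 3.37 and 4.14 with anti-PD1 alone, and 4.30 and 5.69 with PBS. Cd3d around Cd8a gave 3.31 and 2.85 with both drugs, 4.6 and 3.01 with CpG-STAT3ASO alone, 2.15 and 3.33 with anti-PD1 alone, and 2.69 and 3.10 with PBS. FP 13 around itself gave 0.99 to 1.41, under every Cd8a and Cd3d value. For FP 13 around either gene the ratio stayed between -0.19 and 0.53, and for the other FP codes between 0.01 and 1.14. The second combination section, with the most Cd8a, had the lowest ratio of Cd8a around itself.

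Linking Cd8a molecules within 50 pixels gave groups of at least 3 molecules, which are clusters of molecules and not segmented cells. There were 119 and 1055 such groups under the combination, 55 and 212 with CpG-STAT3ASO alone, 390 and 278 with anti-PD1 alone, and 179 and 141 with PBS. Their mean size was 11.3 and 16.2 molecules in the combination, 14 and 9.77 with CpG-STAT3ASO alone, 8.23 and 9.69 with anti-PD1 alone, and 8.78 and 8.28 with PBS. This measure was added to the planned ones. The mean over sections was 12.8 ± 2.87 with CpG-STAT3ASO and 8.74 ± 0.676 without it (SD, n = 4 sections each), a difference of 4.08 (two-sided exact permutation p = 0.0286, adjusted p = 0.0889). The ranges did not overlap, though the second section of CpG-STAT3ASO alone, at 9.77, lay just above the second anti-PD1 section, at 9.69. With molecules linked within 100 pixels these became 10.5 and 10.7, so the ranges overlapped, and the adjusted p was 0.178. The second combination section held 331 groups of 20 or more molecules, against 9 to 24 in the other 7.

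Groups of at least 3 molecules that held both genes, linked within 100 pixels, numbered 50 and 372 under the combination, 29 and 96 with CpG-STAT3ASO alone, 176 and 95 with anti-PD1 alone, and 53 and 77 with PBS. The median such group had 1 Cd3d molecule in every section and 6 to 22.5 Cd8a molecules. They contained 37.4% and 84.0% of Cd3d molecules in the combination, 45.7% and 44.0% with CpG-STAT3ASO alone, 55.5% and 54.9% with anti-PD1 alone, and 41.4% and 29.9% with PBS. With the FP codes other than FP 13 in place of Cd3d, such groups numbered 40 and 326 under the combination and 17 and 81 with CpG-STAT3ASO alone. They numbered 313 and 174 with anti-PD1 alone and 150 and 134 with PBS, more than with Cd3d. Those codes together had more molecules than Cd3d. Per 100 molecules they gave 2.49 to 19.8 groups and Cd3d 16.6 to 53.3, with Cd3d higher in every section. Per 1000 tissue bins the groups of both genes overlapped between sections with and without CpG-STAT3ASO. Cd8a made up 91.7% ± 3.77 of Cd8a plus Cd3d molecules with CpG-STAT3ASO and 87.3% ± 7.32 without it (SD, n = 4 sections each, two-sided exact permutation p = 0.429).

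Genes of cytotoxic lymphocytes lay around Cd8a. For each other gene the density ratio was centred on the median gene of the section and averaged over the 8 sections, and limma called 59.6% of 99 genes in either direction, 29.3% as higher around Cd8a. The highest among genes above the FP background were Gzma at 3.03 (SE 0.340), Nkg7 at 2.95, Klrc1 at 2.93, Gzmb at 2.83, Klrd1 at 2.62, Fasl at 2.37, Pdcd1 at 2.34 and Ifng at 2.19, with adjusted p from 3.07e-05 to 0.000948. Gzma and Gzmb encode granzymes, Nkg7 a cytotoxic granule protein, and Klrd1 and Klrc1 the CD94 and NKG2A chains of a receptor on NK cells and some CD8 T cells. Fasl encodes a death ligand and Ifng interferon gamma. Gzma ranged from 1.89 in the second combination section to 4.74 in the first section of CpG-STAT3ASO alone, and all 8 of these genes were above 0 in all 8 sections.

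By list, 6 of the 7 measured cytotoxic genes, 5 of 7 T cell checkpoints and 3 of 4 NK cell markers were higher around Cd8a, and the list medians were 2.37, 0.70 and 2.78 beside -0.03 over all genes. The NK list shares Nkg7 with the cytotoxic list, and its exception, Klrb1c, the NK1.1 receptor gene, had -0.28. Cd3d itself was at 2.56 around Cd8a and Ptprc at 1.23. Of 5 dendritic cell markers none was higher and Irf8 was lower, and of 7 macrophage and microglia markers 5 were lower, among them Tmem119 at -0.34 and Adgre1 at -0.26. Cd4, the coreceptor gene of helper T cells that macrophages and microglia can also express, was lower around Cd8a at -0.27 (adjusted p = 0.0127).

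Around Cd3d the same kinds of gene stood out, and Foxp3 was higher there too. Here limma called 67.7% of 99 genes in either direction and 35.4% as higher, led by Cd8a at 2.38 (SE 0.177, adjusted p = 5.11e-05), Nkg7 at 2.29, Ifng at 2.28, Klrc1 and Pdcd1 at 2.24 each, Klrd1 at 2.11, Cd28, a costimulatory receptor, at 2.03 and Fasl at 1.93. All 7 measured cytotoxic genes, 5 of 7 checkpoints, 4 of 4 NK cell markers and all 3 regulatory T cell genes were higher. Of those 3, Il2ra, the interleukin 2 receptor alpha gene, was higher around both, at 1.74 around Cd3d and 1.48 around Cd8a. Foxp3, the transcription factor of regulatory T cells, was at 1.46 around Cd3d (SE 0.171, adjusted p = 9.64e-05), between 0.93 and 2.11 over the 8 sections. Around Cd8a Foxp3 was at -0.16 (adjusted p = 0.236), between -0.96 and 0.60. Centred ratios of Foxp3 and Cd4 were higher around Cd3d than around Cd8a in 8 of 8 sections, and those of Gzma and Gzmb lower in 8 of 8. Ctla4 was higher in 7 sections, Cd28 and Klrb1c in 6 each and Il2ra in 5. These differences were not tested. The median gene used for centring had log2 ratios of 0.41 to 1.15 around Cd3d and 0.34 to 0.81 around Cd8a. The order of the 2 anchors can therefore differ without centring.

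**Figure D5:**
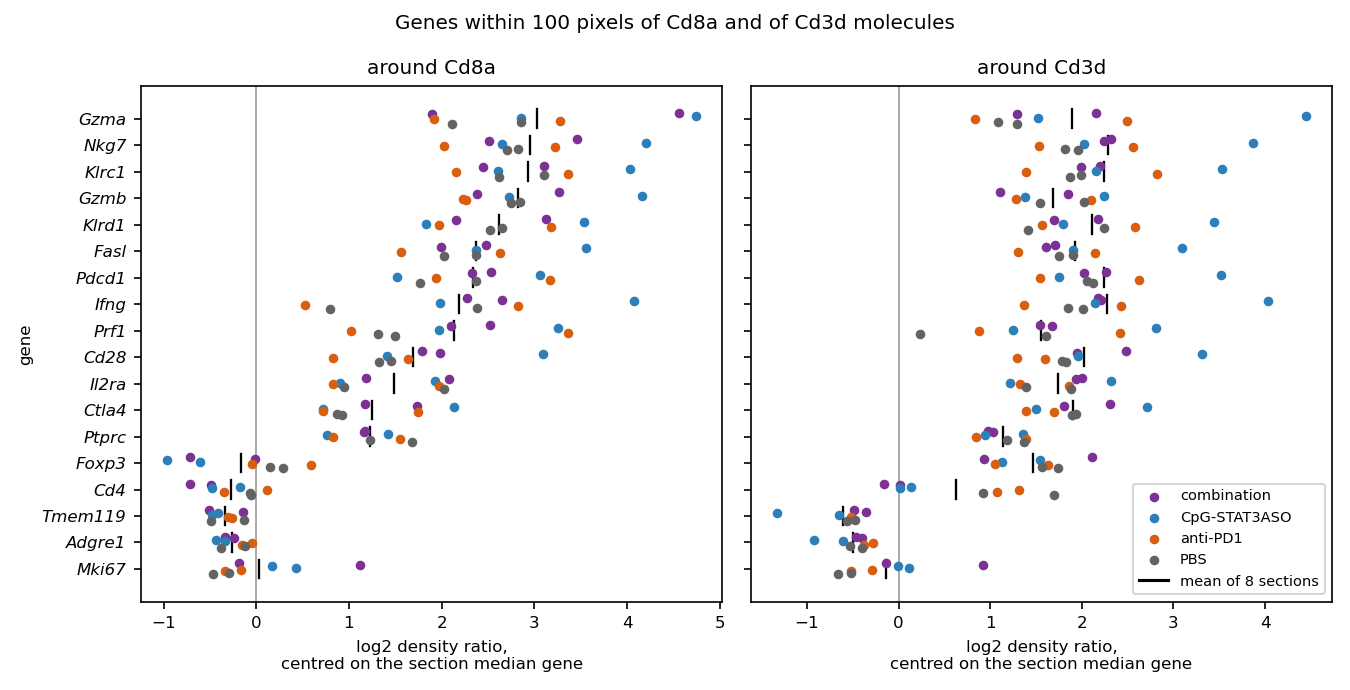
Centred log2 density ratio of named genes around Cd8a and around Cd3d, with each section as a point and the mean over 8 sections as a bar mark; the scale is relative to the median gene of each section. Foxp3 lies near 0 around Cd8a and at 1.46 on average around Cd3d, and Gzma, Nkg7 and Klrc1 are high around both.

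Between sections with and without CpG-STAT3ASO, limma called 0% of 99 genes around Cd8a, with 19 at an unadjusted p under 0.05. Around Cd3d, 7.07% were called. For Cd4 the ratio was -0.16 and 0.02 under the combination and 0.14 and 0.02 with CpG-STAT3ASO alone, against 1.32 and 1.07 with anti-PD1 alone and 0.92 and 1.70 with PBS. The difference was -1.25 and the 2 sets of sections did not overlap. How many of the 99 genes separated in this way was not counted. Cd3d itself lay in different tissue, with 2.20% to 6.48% in dense bins with CpG-STAT3ASO and 68.0% to 89.3% without it. In the sections without the drug the Cd4 share was lower in dense than in low-proliferation bins, a log2 difference of -5.92. The part of place in the Cd4 ratio was not tested. Il10 had the largest of the 7 differences in size, at -1.69, and its 2 sets overlapped. With a radius of 200 pixels none of the 7 was called.

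Over the 8 sections, log2(CPM + 1) of Cd8a and Cd3d had a Pearson r of 0.73 and a Spearman rho of 0.79, and r was 0.57 without the second combination section. The genes most like Cd8a were Fasl (r = 0.90), Tnf, a macrophage and T cell cytokine gene (0.85), Klrd1 (0.84), Pdcd1 (0.83) and Klrc1 (0.78), ranked among 84 genes. Those most like Cd3d were Klrc1 (0.96), Fasl (0.91), Cd28 (0.90), Pdcd1 (0.89) and Klrd1 (0.88), ranked among 85. Without the second combination section r with Cd8a was 0.72 for Fasl, 0.69 for Tnf and 0.87 for Klrd1. It was 0.58 for Pdcd1 and 0.49 for Klrc1, while Icos rose from 0.53 to 0.98, so the Cd8a ranking depends on that section. For the genes named with Cd3d, r without it was 0.83 to 0.97. These points share the section totals, and the values are a description of 8 sections.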

How the data were processed

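Resolve single-molecule fluorescence in situ hybridisation of a 100-gene panel was deposited as position lists. The authors' deposited values are other than counts: x, y and z in pixels and a target name per molecule. The submitters' processing notes name Seurat 4.2.0; its role and the decoding were not given in the sources used here. Molecules were counted per section and per bin of 360 pixels (Python, pandas 2.3.3, scipy 1.17.1), and log2(CPM + 1) was fitted with limma 3.58.1 (R 4.3.3, eBayes with trend) over genes averaging 10 or more molecules, with Benjamini-Hochberg adjustment and a threshold of 0.05. Distances were taken in x and y. Density ratios had 0.5 added to each count. Single values per section were compared by exact permutation. Data were simulated for the average CpG-STAT3ASO effect over 100 genes, with calls at an adjusted p under 0.05. Of the changes, 27.1% of 2-fold, 72.1% of 4-fold and 93.6% of 8-fold were recovered, and 5.89% of unchanged genes were called. That 5.89% is a share of the unchanged genes, not of the calls. The false share of the calls was not computed, so the adjusted p-values cannot be taken as calibrated. Cd8a and Cd3d and the gene lists were chosen with earlier results of these data known. Named beside them, per member, were the 5 genes most alike over sections, the 8 highest around it among genes above the FP 90th percentile in at least 6 of 8 sections, and examples of the lists. Others, such as Cd4 and Foxp3, were singled out after their values were seen. Alternatives covered scaling, pseudocount, filters, bin size, thresholds, radius, background subtraction, left-out sections and the replicate block. Sequence and genome coordinates were not used here.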

Additional observations from a re-analysis of the deposited data

Results flagged for a closer look

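In low-proliferation bins Cd8a moved in opposite directions with anti-PD1 in the 2 drug backgrounds. Both combination sections lay above both sections of CpG-STAT3ASO alone, a ratio of mean CPM of 3.19, and both anti-PD1 sections lay below both PBS sections, a ratio of 0.587. The interaction in the limma fit over 98 genes was 2.13 on the log2 scale (adjusted p = 0.877), so it did not pass. The 3.19 includes the second combination section, at 3401 CPM beside 851 in the first.

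Around Cd3d the centred density ratio of 7 genes differed between sections with and without CpG-STAT3ASO by the limma fit. The differences, with minus without, were -1.20 for Ccl3, -1.0 for Ccl4, -1.25 for Cd4, -1.69 for Il10, 0.88 for Il16, 0.58 for Ly6a and -0.76 for S1pr1. Ccl3 and Ccl4 are chemokine genes, Il10 and Il16 cytokine genes, and S1pr1 encodes a receptor for lymphocyte exit from tissue. The number called was 0 with a radius of 200 pixels, and also 0 without the first combination section, the first CpG-STAT3ASO section or either anti-PD1 section.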

How the results depend on the processing

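Molecule totals limit Cd3d most (94 to 698 per section). Pairing: same-numbered sections of the combination, CpG-STAT3ASO alone and PBS deviated in the same direction (r 0.25 to 0.59). Those of anti-PD1 alone deviated in the opposite direction to all of these (r -0.53 to -0.31). No direction was shared by every group, so the replicate block is only an alternative. With it, Cd8a in low-proliferation bins, combination against anti-PD1, was 2.56 (limma adjusted p = 0.0534), and no other call changed with it. The cause of each change below was not tested. On 1000 tissue bins Cd8a gave 1.57 (combination against PBS), 0.65 (combination against anti-PD1), 0.27 (CpG-STAT3ASO average) and -0.12 (CpG-STAT3ASO against PBS), and Cd3d -0.75 (CpG-STAT3ASO against PBS), 0.13 (anti-PD1 against PBS) and -0.37 (average). With median-of-ratios scaling Cd8a gave 2.04, 1.30 and 0.996 for the combination against PBS, against anti-PD1 and the average, all lost. The combination against anti-PD1 was also lost at 1.98 (pseudocount 10), 1.99 (minimum of 50 molecules, and without trend), 2.03 (mean FP subtracted) and 1.71 (merged); in low-proliferation bins at 2.42 (bins of 180 pixels) and 3.04 (per 1000 bins). Anti-PD1 against PBS in Cd3d turned to 0.42 with mean FP and to 0.029 with median FP subtracted, an alternative chosen after seeing the data. Dense against low bins in Cd8a was -0.017 at dense 200, -0.70 over all 8 sections and 3.01 per bin, in Cd3d 3.65 per bin; the Cd8a margin was lost at dense 200 (1.23). At 200 pixels 1 gene differed around Cd8a and 0 around Cd3d.

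Differences with minus without CpG-STAT3ASO turned for Cd8a around itself (0.00225 at 50 pixels, 0.060 merged), Cd8a per 1000 dense bins (0.70 at dense 50, 1.19 at 180 pixels) and groups of both genes (0.36 at 10 molecules). With minus without anti-PD1 turned for Cd3d near Cd3d (1.32 points at 200 pixels), Cd3d per dense bin (-0.66 at dense 200), Cd3d in intermediate bins (-3.93 at dense 200, -2.57 at 180 pixels, -0.027 at 50 molecules per tissue bin) and Cd3d 1 to 3 bins outside (-0.017 at dense 200).

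Leaving out each section in turn, whole-section Cd8a ranged from 1.64 to 3.79 (combination against PBS), 0.92 to 3.07 (against anti-PD1), 1.14 to 2.21 (CpG-STAT3ASO average) and -0.44 to 1.70 (interaction); Cd3d from -0.026 to 1.45 (CpG-STAT3ASO against PBS), -0.69 to 0.57 (anti-PD1 against PBS), -0.19 to 1.29 (combination against CpG-STAT3ASO), -0.13 to 0.61 (anti-PD1 average) and -0.13 to 1.35 (interaction). In low-proliferation bins Cd8a ranged from 0.79 to 2.78 (combination against PBS), 1.56 to 3.56 (against anti-PD1), 0.99 to 1.99 (CpG-STAT3ASO average) and -0.21 to 0.79 (anti-PD1 average), Cd3d from -0.19 to 2.26, -0.71 to 1.74 (CpG-STAT3ASO against PBS), 0.79 to 2.02 and -0.98 to 0.24 for the combination against PBS and the 2 averages. Dense against low was -0.34 to 0.69 (Cd8a) and 0.44 to 1.34 (Cd3d); margin 1.17 to 1.90 and 1.76 to 3.0; genes differing around Cd3d 0 to 5.

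With minus without CpG-STAT3ASO, leave-outs spanned -0.64 to 6.23 points (Cd8a near Cd3d), -3.59 to 11.1 (Cd3d near Cd8a), and on the log2 scale -0.35 to 0.42 (Cd8a around itself), -3.18 to 1.5 (Cd8a per dense bin), -0.32 to 0.52 (Cd3d per dense bin), -0.036 to 1.0 (Cd3d per intermediate bin) and -0.81 to 0.40 (groups of both genes). With minus without anti-PD1 they spanned -5.17 to 1.36 points (Cd3d near Cd3d); for Cd8a -3.66 to 25.6 points in dense, -13.2 to 7.46 in intermediate and -22.0 to 0.64 in low bins; for Cd3d -7.57 to 21.5, -11.9 to 9.65 and -19.6 to 4.24 points; on the log2 scale for Cd8a -0.55 to 1.06 per low bin, -0.44 to 1.36 and -0.53 to 1.14 at 4 to 9 and 10 or more bins outside; for Cd3d -0.24 to 0.61, -0.067 to 0.93 and -0.91 to 0.43 per dense, intermediate and low bin, and -0.12 to 1.08, -1.22 to 0.55 and -1.23 to 0.29 at 1 to 3, 4 to 9 and 10 or more bins outside; and -0.47 to 2.42 molecules per Cd8a group.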

Other observations

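Seen from the other genes, 63.7% of Gzma molecules, 58.9% of Nkg7, 58.7% of Gzmb and 55.2% of Klrc1 lay within 100 pixels of a Cd8a molecule in the median section. The share was 45.0% for Klrd1, 24.8% for Ptprc, 14.5% for Mki67 and 8.28% for Cd4. These shares follow the density of each section and are given as values.

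Cd8a was spread over 20.1% and 56.9% of tissue bins under the combination, 16.3% and 26.6% with CpG-STAT3ASO alone, 32.0% and 25.5% with anti-PD1 alone, and 24.4% and 18.4% with PBS. Bins that together held 50% of all Cd8a molecules numbered 47 and 236 with both drugs, 32 and 73 with CpG-STAT3ASO alone, 108 and 90 with anti-PD1 alone, and 64 and 52 with PBS. The fullest Cd8a bin held 110 molecules in the second combination section and 31 to 47 in the other 7, and the fullest Cd3d bin held 4 to 11.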
